A study of Homo sapiens with 8 samples.

Results

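The miR-191 and miR-425 cluster is a pair of microRNA (miRNA) hairpins in the first intron of DALRD3. It was followed through its 4 mature products, hsa-miR-191-5p, hsa-miR-191-3p, hsa-miR-425-5p and hsa-miR-425-3p. The members were chosen by name, as both arms of both hairpins. All 4 are among the 2026 entries of the deposited read-count table, and all 4 were among the 570 miRNAs with enough reads to be tested.

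Small RNA was sequenced from HCT116, a human colorectal cancer cell line grown as spheroids in serum-free medium with fibroblast and epidermal growth factors in low-attachment flasks. Living cells were sorted by flow cytometry with an antibody against CD44v6, a variant made by splicing of CD44, which binds hyaluronan, into CD44v6-positive and CD44v6-negative cells. Each group has 2 samples, and each sample merges 2 of the 8 sequencing entries. All samples come from 1 line, the groups differ by 1 surface marker, and the labels do not say whether samples 1 and 2 came from separate cultures. The p-values therefore measure only the sample-to-sample spread, part or all of which may be technical.

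Drosha and Dicer cut a miRNA hairpin into a duplex, and usually 1 strand, the guide, is loaded into Argonaute while the other, the passenger, is degraded. miRNAs of 1 transcript share its synthesis, but each strand's level also depends on cutting, loading and decay. miR-191-5p is abundant in epithelial and blood cells, is often reported raised in colorectal tumours, and is widely used as a reference for normalising miRNA measurements. miR-425-5p is also used as such a reference, mostly in blood.

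The locus is on the minus strand of chromosome 3. On GRCh38, MIR191 (ENSG00000207605.3) lies at chr3:49020618-49020709 and MIR425 (ENSG00000199032.1) at chr3:49020148-49020234, with 383 bases between them. In GENCODE release 29, 4 of the 15 DALRD3 transcripts span both hairpins, and in each of them both lie in intron 1. On the plus strand, NDUFAF3 (chr3:49020459-49023495) overlaps MIR191 but not MIR425. DALRD3 itself spans chr3:49015488-49022293.

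Mature sequences of 3 of the 4 members were read from RefSeq (GRCh38.p14). They are shown with the seed, bases 2 to 8, in capitals, because the seed sets which messenger RNAs a miRNA can pair with.
hsa-miR-191-5p: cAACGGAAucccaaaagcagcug
hsa-miR-191-3p: gCUGCGCUuggauuucgucccc
hsa-miR-425-3p: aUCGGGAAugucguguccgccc
The 3 seeds differ from each other, and no other of the 2370 mature names in the RefSeq table shares a seed with any of these 3 miRNAs. Their nearest other mature miRNAs are 9, 8 and 9 single-base edits away, namely miR-1203, miR-4312 and miR-1257. Their lengths of 23, 22 and 22 bases are close, so reads were set side by side without a length correction. The GC content is 52.2% in miR-191-5p and 63.6% in each of miR-191-3p and miR-425-3p. The hairpin of miR-191, of 92 bases, is shown with its 5p and 3p arms in capitals, since the reads of this hairpin come almost wholly from 1 arm.
MIR191: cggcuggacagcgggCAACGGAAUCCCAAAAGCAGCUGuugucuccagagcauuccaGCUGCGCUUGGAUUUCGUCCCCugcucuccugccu

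The libraries held 919802 and 154481 miRNA reads in CD44v6-positive samples 1 and 2, against 7880631 and 4592278 in CD44v6-negative samples 1 and 2, so depth and group cannot be told apart. The 5 miRNAs listed as epithelial markers (miR-192-5p, miR-194-5p, miR-200c-3p, miR-141-3p and miR-200b-3p) were read in every sample, at 45 reads or more. They summed to 13112 to 16770 CPM in CD44v6-positive samples, against 17733 to 30025 CPM in CD44v6-negative samples. CPM is reads per 1000000, scaled by TMM, the trimmed mean of M-values. The 5 did not share a direction: miR-192-5p and miR-194-5p averaged higher in CD44v6-positive cells and the other 3 lower. Only miR-141-3p had groups that did not overlap, at 1556 ± 543 against 8278 ± 4146 CPM (SD, n = 2). Over all tested miRNAs the groups did not overlap in 59.5%. miR-141-3p was called lower in CD44v6-positive cells by DESeq2 (adjusted p = 0.0134) but not by edgeR (adjusted p = 0.101), tests described below. DESeq2 called 8.81% of all miRNAs it tested. Of the 6 listed for other cell types, miR-124-3p (neurons) and miR-1-3p and miR-133a-3p (muscle) had 12 reads or fewer in each sample, and all 3 were at 0 in CD44v6-positive sample 2. The liver miRNA miR-122-5p had 45 and 117 reads in CD44v6-positive cells, against 24 and 22 reads in CD44v6-negative cells. In CPM this was 48.6 and 610 in CD44v6-positive samples 1 and 2, against 4.59 and 3.99 in CD44v6-negative samples 1 and 2. The means were 329 ± 397 and 4.29 ± 0.426 CPM (SD, n = 2). miR-122-5p was called higher by DESeq2 (adjusted p = 2.4e-07) but not by edgeR (adjusted p = 0.0787). The blood miRNA miR-451a was at 148 ± 188 against 16.2 ± 12.2 CPM, and miR-142-3p at 15.3 ± 7.87 against 17.7 ± 3.67 CPM. These 6 summed to 80.9 and 911 CPM in CD44v6-positive samples 1 and 2, against 49.0 and 32.2 CPM in CD44v6-negative samples 1 and 2. CD44v6-positive sample 2, the shallowest library, thus stood apart in this sum. For miR-122-5p, CD44v6-positive sample 1 was also above both CD44v6-negative samples. Across the 497 tested miRNAs with a RefSeq sequence, which are not independent replicates, GC content and log2 fold change correlated at a Pearson r of 0.457. Whether any of this bears on the cluster's values was not tested.

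The cluster took 8.01% and 6.50% of all miRNA reads in CD44v6-positive samples 1 and 2, against 5.72% and 7.95% in CD44v6-negative samples 1 and 2. The groups overlapped. The means were 7.26% ± 1.06 and 6.84% ± 1.57 (SD, n = 2 each), and an exact two-sided permutation test of this difference gave p = 0.667. With 2 samples against 2, the smallest p such a test can give is 0.333. The difference of 0.42 percentage points turned to -0.69 when CD44v6-negative sample 1 was left out and to -0.33 for CD44v6-positive sample 1. It was 1.53 without CD44v6-negative sample 2. Its sign also changed with the scaling, to -1.03 percentage points with library sizes scaled by TMM. Most of the cluster's reads were miR-191-5p.

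miR-191-5p, the guide strand, was among the most abundant miRNAs of these cells in both groups and was close between them. It had 72616 and 9860 reads in CD44v6-positive samples 1 and 2, against 445451 and 357616 reads in CD44v6-negative samples 1 and 2. In TMM-scaled CPM this was 78358 and 51385 in the CD44v6-positive samples, against 85226 and 64839 in the CD44v6-negative samples. The groups overlapped, and the samples numbered 1 were the higher ones in each group. The means were 64871 ± 19073 and 75033 ± 14416 CPM, and the log2 fold change, positive minus negative, was -0.21 ± 0.44 (SE, edgeR adjusted p = 0.769). The sign changed with the library left out, to 0.28 without CD44v6-positive sample 2 and to 0.071 without CD44v6-negative sample 1, while leaving out CD44v6-positive sample 1 gave -0.67. It also changed with the scaling, which moves all miRNAs: the value was 0.12 with upper quartile and 0.09 with total count scaling, where the median over all tested miRNAs was 0.04 and 0.01, instead of -0.31 with TMM. miR-191-5p thus lay slightly above the median in each of these 3 scalings. It ranked 3rd of all entries in both CD44v6-positive samples, and 4th and 2nd in CD44v6-negative samples 1 and 2. By group mean it stood in CD44v6-positive cells between miR-92a-3p (142118 ± 3542 CPM) and miR-92b-3p (64675 ± 15313 CPM). Its distance from miR-92b-3p was smaller than its spread and that from miR-92a-3p larger. In CD44v6-negative cells it stood between let-7a-5p (84021 ± 57010 CPM) and miR-92a-3p (63211 ± 3842 CPM), and both differed from it by less than its spread.

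miR-425-5p, the guide strand of the second hairpin, was also close between the groups, at a far lower level. It had 895 and 144 reads in CD44v6-positive samples 1 and 2, against 4671 and 6522 reads in CD44v6-negative samples 1 and 2. This was 966 and 750 CPM in the CD44v6-positive samples, against 894 and 1183 CPM in the CD44v6-negative samples. The groups overlapped, with CD44v6-negative sample 2 the highest and CD44v6-positive sample 2 the lowest. The means were 858 ± 152 and 1038 ± 204 CPM, and the log2 fold change was -0.27 ± 0.47 (SE, edgeR adjusted p = 0.715). It turned to 0.14 when CD44v6-positive sample 2 was left out and to 0.11 for CD44v6-negative sample 2, and was -0.60 without CD44v6-positive sample 1. With upper quartile scaling it was 0.06 and with total count scaling -0.08. By group mean miR-425-5p ranked 74th of the tested miRNAs in CD44v6-positive cells, between miR-181b-5p (893 ± 336 CPM) and miR-130b-3p (847 ± 10.7 CPM). In CD44v6-negative cells it ranked 82nd, between miR-210-3p (1056 ± 848 CPM) and miR-18a-5p (1002 ± 64.8 CPM). These neighbours differed from it by less than its spread in each group.

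The passenger strands were rare, and their fold changes had opposite signs, without passing the test. miR-191-3p had 55 and 39 reads in CD44v6-positive samples 1 and 2, against 100 and 280 reads in CD44v6-negative samples 1 and 2. This was 59.3 and 203 CPM in the CD44v6-positive samples, against 19.1 and 50.8 CPM in the CD44v6-negative samples. The CD44v6-positive samples lay above the CD44v6-negative ones, although CD44v6-positive sample 1 was close to CD44v6-negative sample 2. The means were 131 ± 102 and 34.9 ± 22.4 CPM, and the log2 fold change was 1.87 ± 0.84 (SE, edgeR adjusted p = 0.190), a fitted fold of 3.64. It was 1.03 without CD44v6-positive sample 2 and 2.94 without CD44v6-negative sample 2. By group mean it ranked 163rd in CD44v6-positive cells and 268th in CD44v6-negative cells. With total count scaling the groups overlapped, at 59.8 and 252 CPM in CD44v6-positive samples against 12.7 and 61.0 CPM in CD44v6-negative samples.

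miR-425-3p had 81 and 5 reads in CD44v6-positive samples 1 and 2, against 767 and 642 reads in CD44v6-negative samples 1 and 2. This was 87.4 and 26.1 CPM in the CD44v6-positive samples, against 147 and 116 CPM in the CD44v6-negative samples. Both CD44v6-positive samples lay below both CD44v6-negative samples, and sample 2, with 5 reads, lay lowest. For those 5 reads the 95% exact binomial interval is 10.5 to 75.5 CPM before TMM scaling, which covers counting error only, since amplified reads are not independent molecules. The means were 56.7 ± 43.4 and 132 ± 21.5 CPM, and the log2 fold change was -1.13 ± 0.69 (SE, edgeR adjusted p = 0.311). Without CD44v6-positive sample 2 it was -0.37 and without CD44v6-positive sample 1 it was -2.45. By group mean it ranked 226th in CD44v6-positive cells and 170th in CD44v6-negative cells. The passenger strands thus stood in a different order in the groups by mean level, with miR-191-3p above miR-425-3p in CD44v6-positive cells and below it in CD44v6-negative cells. In CD44v6-positive cells the gap was smaller than the SD of miR-191-3p (102 CPM) and larger than that of miR-425-3p (43.4 CPM). That order came from CD44v6-positive sample 2, with 5 reads of miR-425-3p against 39 of miR-191-3p. In CD44v6-positive sample 1 miR-425-3p lay above miR-191-3p, at 87.4 against 59.3 CPM, as it did in both CD44v6-negative samples.

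**Figure D1:**
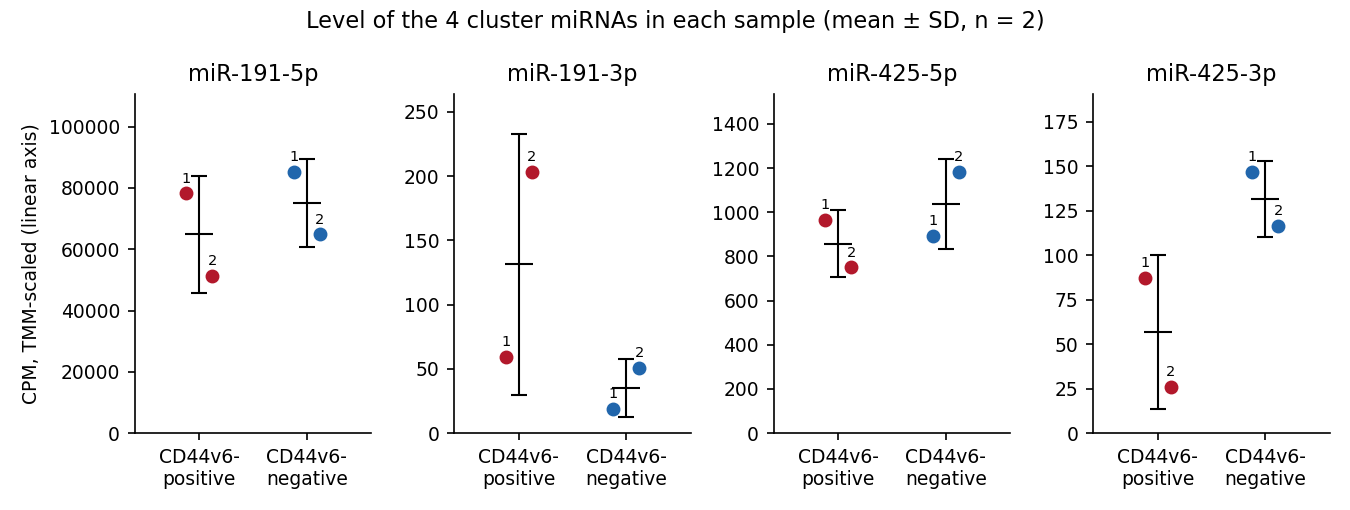
Level of each member in TMM-scaled CPM on a linear axis, one panel per miRNA, with CD44v6-positive samples left (red) and CD44v6-negative samples right (blue), numbered by sample. Horizontal marks and bars are the mean ± SD of 2 samples. The guide strands overlap between the groups, miR-191-3p averages 131 against 34.9 CPM, and miR-425-3p averages 56.7 against 132 CPM.

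None of the 4 members was called by the quasi-likelihood test of edgeR at an adjusted p of 0.05, nor was any other miRNA, 0 of 570 tested (0%). At an unadjusted p under 0.05 edgeR had 174 miRNAs, 74 higher and 100 lower in CD44v6-positive cells, and no member was among them. The smallest unadjusted p among the members was 0.0670 for miR-191-3p. limma-voom called 4 miRNAs and no member. DESeq2 called 52 of 590 miRNAs (8.81%), again without a member, with adjusted p of 0.183 for miR-191-3p and 0.317 for miR-425-3p. The groups did not overlap in 2 of the 4 members, 1 higher and 1 lower. Over all tested miRNAs they did not overlap in 59.5%, of which 24.9% of the tested were higher and 34.6% lower, so the members' count is near that background.

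The passenger strands have the same GC content, and of the 113 tested miRNAs within 5 percentage points of it, the median log2 fold change was 0.66. miR-191-3p at 1.87 lay above that median and miR-425-3p at -1.13 below it. Near the GC content of miR-191-5p, 148 miRNAs had a median of -0.13, beside its own -0.21. The median over all tested miRNAs was -0.31.

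**Figure D2:**
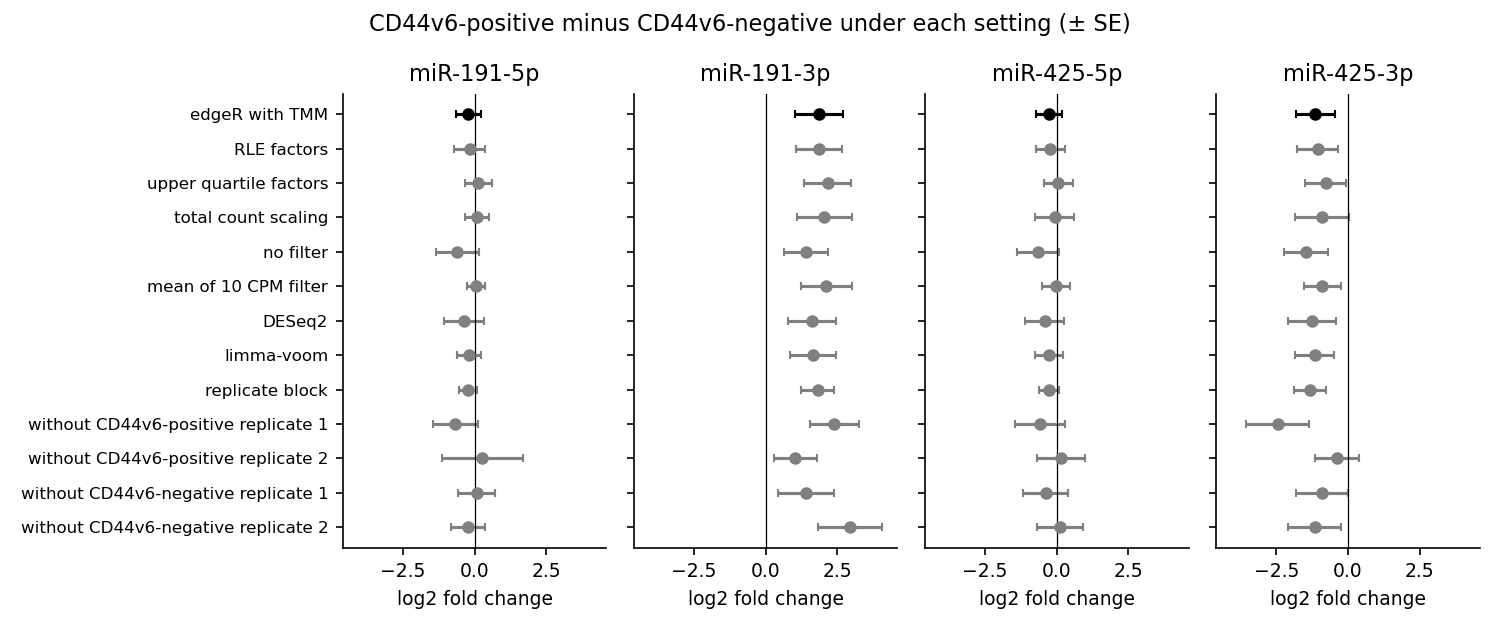
Log2 fold change, CD44v6-positive minus CD44v6-negative, with its SE, for each member (panels) under edgeR with TMM (black) and each other setting (grey). The guide strands change sign, miR-191-5p between -0.67 and 0.28 and miR-425-5p between -0.65 and 0.14. miR-191-3p stays between 1.03 and 2.94, and miR-425-3p between -2.45 and -0.37.

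Ratios of reads within a library do not depend on how libraries are scaled. Whether the cluster's products were read with equal efficiency was not tested, so these are ratios of reads only. Reads of miR-425-5p per read of miR-191-5p were 0.0123 and 0.0146 in CD44v6-positive samples 1 and 2, against 0.0105 and 0.0182 in CD44v6-negative samples 1 and 2. Put the other way, miR-191-5p had 81.1 and 68.5 reads for each read of miR-425-5p in CD44v6-positive samples, against 95.4 and 54.8 in CD44v6-negative samples. The CD44v6-positive values lay between the CD44v6-negative ones. The 95% exact binomial intervals of the CD44v6-negative ratios were 0.0102 to 0.0108 and 0.0178 to 0.0187. They did not touch, so samples of that group differed by more than the error of counting independent reads. Amplified reads are not independent molecules, which these intervals do not take into account.

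The mean log2 ratio of miR-425-5p to miR-191-5p was -6.22 ± 0.17 in CD44v6-positive cells and -6.18 ± 0.56 in CD44v6-negative cells, a difference of -0.04 (exact two-sided permutation p = 1). With the arms of each hairpin summed, the log2 ratio of miR-425 to miR-191 was -6.14 ± 0.12 and -6.00 ± 0.50, a difference of -0.14 (exact two-sided permutation p = 1). Without CD44v6-positive sample 1 the first difference was 0.079 and without CD44v6-positive sample 2 it was -0.17. It was -0.44 when CD44v6-negative sample 1 was left out and 0.36 for CD44v6-negative sample 2. The second difference was -0.49 and 0.22 when these same CD44v6-negative samples were left out.

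The same ratio for the passenger strands was far from constant. Reads of miR-425-3p per read of miR-191-3p were 1.47 and 0.128 in CD44v6-positive samples 1 and 2, against 7.67 and 2.29 in CD44v6-negative samples 1 and 2. The CD44v6-positive samples lay below the CD44v6-negative ones, and the 4 values spanned more than the guide strands' did. The lowest rests on 5 reads against 39, with a 95% interval of 0.0394 to 0.326. The mean log2 ratios were -1.20 ± 2.49 and 2.07 ± 1.23, a difference of -3.27, or 9.65-fold. The exact two-sided permutation p was 0.333, the smallest 2 samples against 2 allow. Without CD44v6-positive sample 2 the difference was -1.51, and without CD44v6-positive sample 1 it was -5.03. Leaving out a CD44v6-negative sample gave -2.40 without sample 1 and -4.14 without sample 2.

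Within miR-191 the 5p arm dominated in every sample. There were 1320 and 253 reads of the 5p arm for each read of the 3p arm in CD44v6-positive samples 1 and 2, against 4455 and 1277 in CD44v6-negative samples 1 and 2. CD44v6-positive sample 1 and CD44v6-negative sample 2 had nearly the same ratio, and the groups overlapped. As a share, the 3p arm was 0.0757% and 0.394% of the hairpin's reads in CD44v6-positive samples, against 0.0224% and 0.0782% in CD44v6-negative samples. The mean log2 ratios of 5p to 3p were 9.17 ± 1.69 and 11.2 ± 1.27, a difference of -2.05 (exact two-sided permutation p = 0.667). It was -0.85 without CD44v6-positive sample 2 and -3.24 without CD44v6-positive sample 1.

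Within miR-425 the 5p arm was also the larger, by a much smaller margin. There were 11.0 and 28.8 reads of the 5p arm for each 3p read in CD44v6-positive samples 1 and 2, against 6.09 and 10.2 in CD44v6-negative samples 1 and 2. The CD44v6-positive samples lay above the CD44v6-negative ones. The 95% intervals of CD44v6-positive sample 1 (8.79 to 14.0) and of CD44v6-negative sample 2 (9.37 to 11.0) overlapped, so these 2 samples were not separated by counting error. The mean log2 ratios were 4.16 ± 0.98 and 2.98 ± 0.52, a difference of 1.18 (exact two-sided permutation p = 0.333). It was 0.49 without CD44v6-positive sample 2 and 1.87 without CD44v6-positive sample 1. Of the 6 exact tests in this family, 5 on ratios and 1 on the share of reads, none can pass, and every Benjamini-Hochberg adjusted p was 1.

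**Figure D3:**
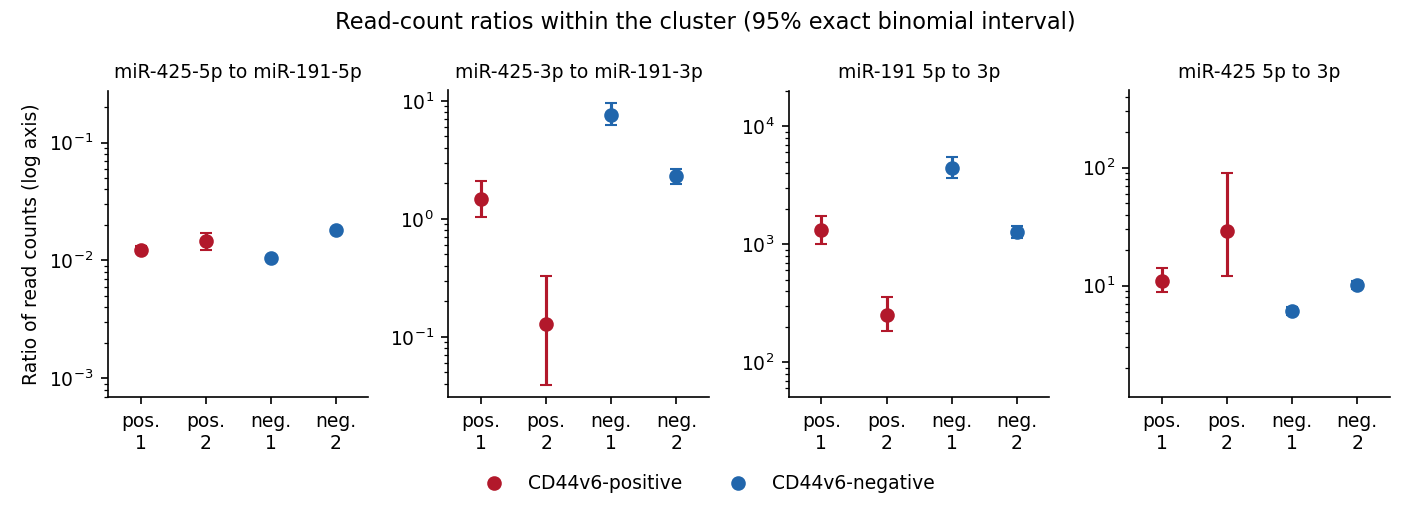
Read-count ratios on log axes of equal span, one panel per ratio, with CD44v6-positive samples 1 and 2 left (red) and CD44v6-negative samples 1 and 2 right (blue). Bars are 95% exact binomial intervals. The ratio of the guide strands runs from 0.0105 to 0.0182, while that of the passenger strands runs from 0.128 to 7.67.

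Arm usage was compared with the 107 hairpins whose arms were both tested and both read in every sample. Over the 4 samples miR-191 had the largest mean log2 ratio of these 107 in size, 10.2, beside let-7g at 10.0 and let-7a at 9.87. That place came from the CD44v6-negative samples: by group mean miR-191 was 5th in CD44v6-positive cells, at 9.17, where let-7g was at 10.8, and 1st in CD44v6-negative cells, at 11.2. Hairpins with an arm at 0 reads in any sample are outside this ranking, such as miR-182, with 0 reads of its 3p arm in CD44v6-positive sample 2. miR-425 ranked 49th, at 3.57. The difference in 5p to 3p ratio between the groups was -2.05 for miR-191, 23rd largest in size, and 1.18 for miR-425, 53rd largest. The median size over the 107 was 1.18 and the quartiles of the signed difference were -1.03 and 1.19. miR-425 was 1 of the 70 hairpins (65.4%) whose groups did not overlap, and its difference was at the median size.

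**Figure D4:**
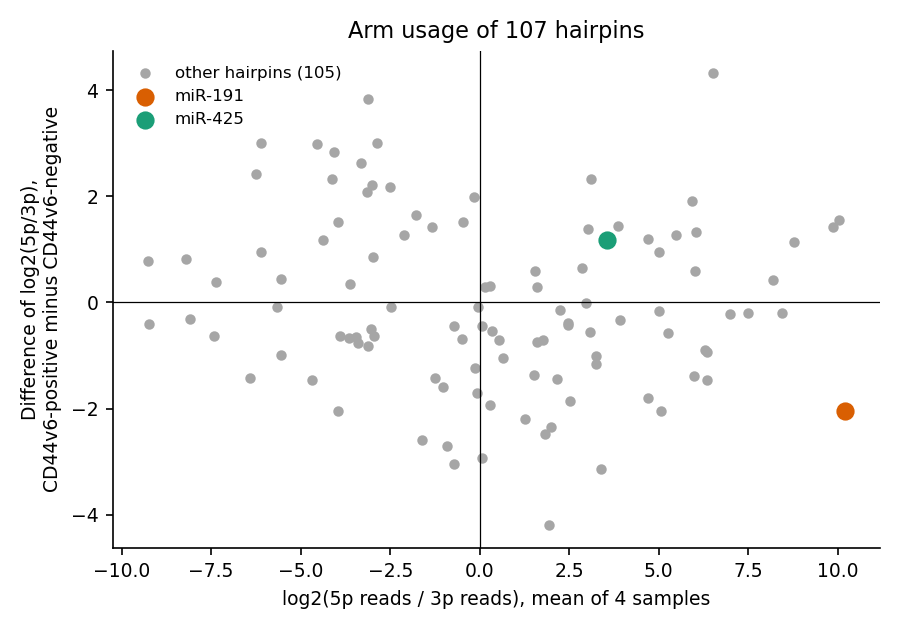
Mean log2 ratio of 5p to 3p reads over 4 samples (x axis) against the difference of that log2 ratio, CD44v6-positive minus CD44v6-negative (y axis), one point per hairpin, 107 in all. miR-191 (orange) lies farthest right, at 10.2 with a difference of -2.05, and miR-425 (green) lies at 3.57 with 1.18.

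The ratio of the guide strands was set beside other ratios of miRNAs that share a transcript, of which 18 of 19 listed were read in every sample. These pairs were also chosen with earlier results of these data known. The difference between the groups for miR-425-5p to miR-191-5p, -0.04, was the smallest in size of all 19. That place rests on all 4 samples, since leaving out CD44v6-negative sample 1 gave -0.44 and leaving out CD44v6-negative sample 2 gave 0.36. The other 18 ran from 0.26 to 2.49 in size with a median of 1.06, and in 14 of them the groups did not overlap. Groups that do not overlap were common in these libraries, at 65.4% of the 107 arm ratios and 59.5% of the tested miRNAs. For miR-425-5p to miR-191-5p the range over the 4 samples, 0.80, was the second smallest, after miR-27a-3p to miR-23a-3p at 0.67. Among the most abundant pairs, miR-183-5p to miR-182-5p differed by -1.10, miR-96-5p to miR-182-5p by -1.20, miR-125a-5p to miR-99b-5p by 1.02 and let-7e-5p to miR-99b-5p by 0.84. No test was made of these differences, and several ratios share a miRNA or have copies at other loci.

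**Figure D5:**
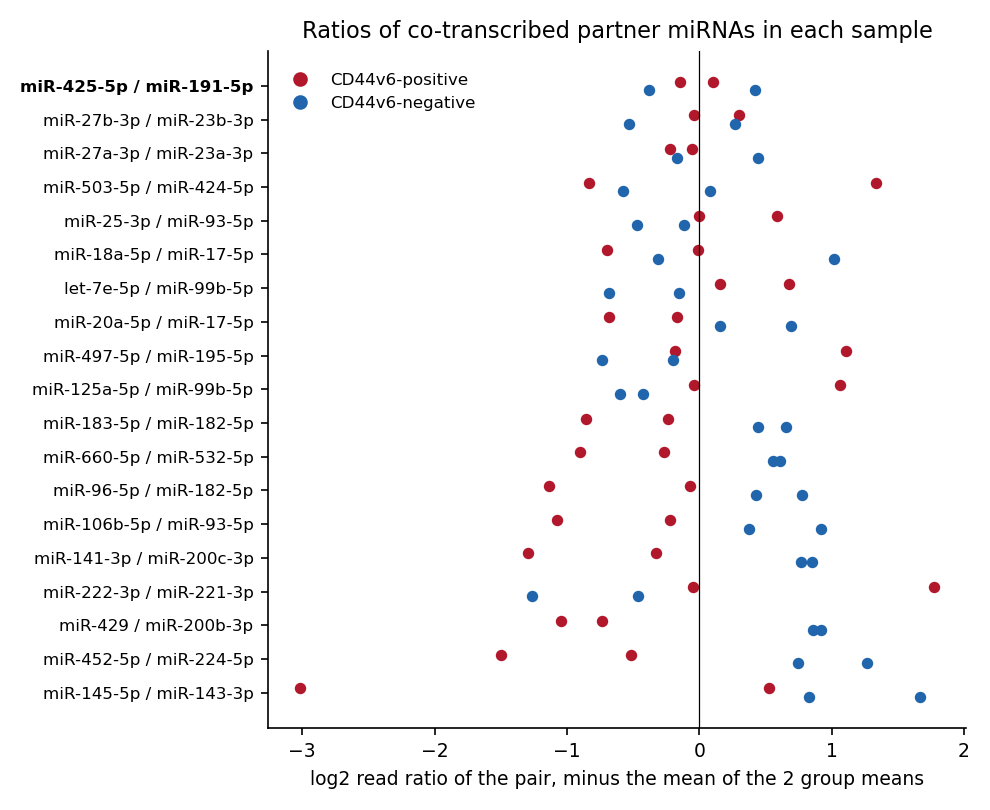
Log2 read ratio of each pair of co-transcribed miRNAs in each sample, centred on the mean of the 2 group means, with CD44v6-positive samples (red) above CD44v6-negative samples (blue) in each row. Pairs are ordered by the size of the group difference, from 0.04 for miR-425-5p to miR-191-5p at the top to 2.49 for miR-145-5p to miR-143-3p at the bottom.

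Over the 4 samples, the tested miRNA whose centred log2 CPM profile was nearest to that of miR-191-5p was miR-361-5p, with a root mean square difference of 0.055. It was at 328 and 235 CPM in CD44v6-positive samples, against 394 and 291 CPM in CD44v6-negative samples. miR-589-5p (0.099) and miR-30d-5p (0.115) came next. For miR-425-5p the nearest were miR-186-5p (0.113), miR-339-3p (0.138) and miR-16-5p (0.141). The pool was 187 miRNAs with a mean of at least 100 CPM, and its median difference was 0.739 from miR-191-5p and 0.755 from miR-425-5p. Between the guide strands themselves the difference was 0.296. From miR-191-5p it was 1.47 to its own passenger strand, and from miR-425-5p 0.810 to its own. With 4 samples many profiles come close, so these are descriptions.

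Of 20 miRNAs used as references for normalisation, all tested, miR-191-5p and miR-425-5p had the smallest log2 fold changes in size. The list was chosen with earlier results of these data known, so places in it are descriptions. Over the other settings, miR-191-5p ranked between 1st and 4th of the 20 except without CD44v6-positive sample 2 (9th), and miR-425-5p between 2nd and 5th. The highest of the 4 CPM values was 1.58 times the lowest for miR-425-5p and 1.66 times for miR-191-5p, 1st and 3rd smallest of the 20, with miR-25-3p between them at 1.65 times. The list spanned log2 fold changes of -2.06 (miR-30e-5p) to 3.73 (miR-423-5p), with a median of -0.52 beside -0.31 over all tested miRNAs. With edgeR 0 of the 20 passed. At an unadjusted p under 0.05 edgeR had 3 higher and 2 lower, beside 74 higher and 100 lower of all 570 tested. DESeq2 called miR-423-5p higher and miR-30e-5p lower, beside 8.81% called over all it tested. The groups did not overlap in 4 higher and 9 lower of the 20, beside 24.9% higher and 34.6% lower over all tested miRNAs. Among the list's most abundant members, let-7a-5p was at -0.45 ± 0.59, miR-26a-5p at -0.49 ± 0.43, miR-151a-3p at -0.61 ± 0.41 and miR-92a-3p at 1.17 ± 0.39.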

How the data were processed

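The deposited table gives whole-number read counts for each mature miRNA. In it each of 4 columns merges 2 of the 8 sequencing entries, per the file headers and labels. The authors also deposited a normalized signal, the same counts divided by 1 size factor per column (0.576 and 0.156 for CD44v6-positive samples 1 and 2, 3.09 and 3.58 for CD44v6-negative samples 1 and 2), which entered no result. The submitters' processing notes name DESeq2, Bowtie 0.12.9, cutadapt 1.10 and CASAVA 1.8.2, and build GRCh38. How reads with several matches were counted is not given in the sources used here.

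The counts were tested with edgeR 4.0.16 in R 4.3.3 (filterByExpr, TMM, glmQLFit, glmQLFTest). Benjamini-Hochberg adjustment was over the 570 tested of 2026 entries, with a threshold of 0.05. The filter was set to 10 reads, with 15 over all samples together. It did not require 10 reads in each sample. miR-155-5p was tested with 4 reads in each sample, and miR-425-3p with 5 in CD44v6-positive sample 2. The SE was taken from the fold change and the F statistic. Depth ranged from 154481 to 7880631 reads, where 3 reads, the limit a count of 0 allows, are 19.4 and 0.381 CPM before TMM scaling. DESeq2 1.42.0 was run on the whole table at its default settings and limma-voom with limma 3.58.1. Ratios used raw counts without a pseudocount, with exact permutation tests and 95% Clopper-Pearson intervals from scipy 1.17.1. The edgeR steps were tested on simulated data. Alternatives were other scalings, filters and tests, a replicate block and leaving out each sample. The members, the lists and the pairs were chosen with earlier results of these data known. Named miRNAs outside the cluster are the 3 nearest profiles of each guide strand among miRNAs with a mean of at least 100 CPM, its neighbours in rank, and in each list, and among the pairs, up to 4 with the highest mean CPM. The lowest, highest and DESeq2-called members of lists, the closest pair, the hairpins ranked next to miR-191, and miR-182, were named after their values were seen. 1 further list of miRNAs is not reported here.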

Additional observations from a re-analysis of the deposited data

How the results depend on the processing

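Of 112 repeats of the results, 78 kept direction and side of the threshold, and the cause of the other changes was not tested. Repeats of the ratios and of the share of reads could not change side, since the smallest p of their exact permutation test is 0.333. A replicate block also leaves the ratio differences as they are. No member passed under any scaling, filter or other tool, or with a sample left out, but 2 did under the replicate block. miR-191-5p turned to 0.12 with upper quartile, 0.087 with total count scaling and 0.047 with the 10 CPM filter, and miR-425-5p to 0.057 with upper quartile scaling. With 1 sample left out, miR-191-5p ran from -0.67 to 0.28, miR-425-5p from -0.60 to 0.14, miR-191-3p from 1.03 to 2.94 and miR-425-3p from -2.45 to -0.37. The difference in log2 ratio ran from -0.44 to 0.36 for miR-425-5p to miR-191-5p, from -0.49 to 0.22 for the summed arms, from -5.03 to -1.51 for the passenger strands, from -3.24 to -0.85 for miR-191 5p to 3p and from 0.49 to 1.87 for miR-425 5p to 3p. The difference in the cluster's share of reads was -1.03 percentage points with TMM-scaled library sizes and ran from -0.69 to 1.53 with 1 sample left out. miRNAs called higher and lower were 33 and 15 with total count scaling, 24 and 53 without a filter, 21 and 31 with DESeq2, and 2 and 2 with limma-voom, and ran from 13 to 34 higher and from 7 to 22 lower with 1 sample left out. With the replicate number as a block, edgeR called 99 higher and 129 lower, among them miR-191-3p (1.82, adjusted p = 0.00710) and miR-425-3p (-1.31, adjusted p = 0.0499). Same-numbered samples deviated together at a Pearson r of 0.375 over 570 miRNAs, but with 2 numbers, and no label that says what they share, this does not establish pairs. In a group left with 1 sample, that sample was assumed to vary like the other group. Depth limits the passenger strands most, with 5 reads of miR-425-3p and 39 of miR-191-3p in CD44v6-positive sample 2.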
